A study of Homo sapiens with 63 samples.

Results

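The 10 genes described here have products that hydrolyse acyl glucuronides, pump drugs and their conjugates out of cells, or join electrophiles to glutathione, and they were followed across a cell experiment with ibuprofen and ibufenac. They were chosen by symbol: GUSB, ABHD10, APEH, ABCC1, ABCC2, ABCC4, ABCG2, ABCB1, GSTP1 and MGST1. All 10 were found among the 58336 genes of the count table, and all 10 passed the low-count filter that left 19352 genes for testing.

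The cells were HEK293T, an established human embryonic kidney line, made to express the Halo protein tag, and every arm shares that background. The design text describes Halo-bound light-releasable precursors of ibuprofen and ibufenac acyl glucuronide, given at 10 uM for 2 h, followed by washing and light of 365 nm at 5 mW/cm2 for 3 min. The 63 libraries form 7 arms: DMSO, ibuprofen bolus, ibuprofen photocaged, ibuprofen probe, ibufenac bolus, ibufenac photocaged and ibufenac probe. Cells were collected at 6, 12 and 18 h, 3 libraries per arm and time, so an arm holds 9 libraries and the design has 21 groups. The labels give neither the dose of the bolus nor which arms were lit, and they do not say how the probe and photocaged forms differ or whether the replicates were separate cultures; the p-values measure only the spread between these libraries, which may be technical.

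The depth was 12.1 to 38.4 M counts per library (median 19.6 M). Genes reported in HEK293 cells were present, with medians over the libraries of 418 CPM (counts per 1 M counts of the library, with the library total scaled by its TMM factor) for VIM, 82.9 for SOX4 and 42.6 for NEFL, while the kidney transcription factor PAX2 was near 0 (median 0.0643). Of 7 hepatocyte markers, APOB, TTR, SERPINA1 and CYP3A4 had a median of 0, and the highest median was 2.06 CPM for CYP2E1. Of 5 kidney tubule genes UMOD was at 0 in all 63 libraries and SLC34A1 and AQP2 had a median of 0, but LRP2 was present at 5.31 to 32.4 CPM (median 19.3) and CUBN had a median of 3.67.

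Acyl glucuronides form when a UDP-glucuronosyltransferase joins glucuronic acid to the carboxyl group of a drug such as ibuprofen. The ester bond is reactive and can pass the drug on to proteins, and it can be cut by beta-glucuronidase and by serine hydrolases, which returns the free drug. ATP-binding cassette transporters carry conjugates and drugs across membranes at the expense of ATP, and in liver they send them into bile or back to blood. Glutathione transferases join reactive molecules to glutathione. Ibufenac has the same carbon skeleton as ibuprofen without the methyl group beside the carboxyl carbon.

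Levels were first compared between the genes on the deposited FPKM scale, which divides by gene length. In the 9 DMSO libraries the glutathione transferase GSTP1 was by far the highest, at 358 ± 50.9 FPKM (SD, n = 9). APEH followed at 39.9 ± 2.89 FPKM, then ABHD10 at 18.0 ± 0.88 and GUSB at 17.5 ± 1.69, whose ranges overlapped. Among the transporters ABCC1 stood at 10.1 ± 1.27 FPKM and ABCC4 at 9.06 ± 0.970, again with overlapping ranges. ABCB1 was lower, at 2.47 ± 0.384 FPKM. MGST1 at 1.12 ± 0.305, ABCG2 at 0.88 ± 0.356 and ABCC2 at 0.611 ± 0.171 FPKM closed the order, and each overlapped its neighbour. Over all 63 libraries the order by mean FPKM kept all 10 positions when any library was left out.

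**Figure D1:**
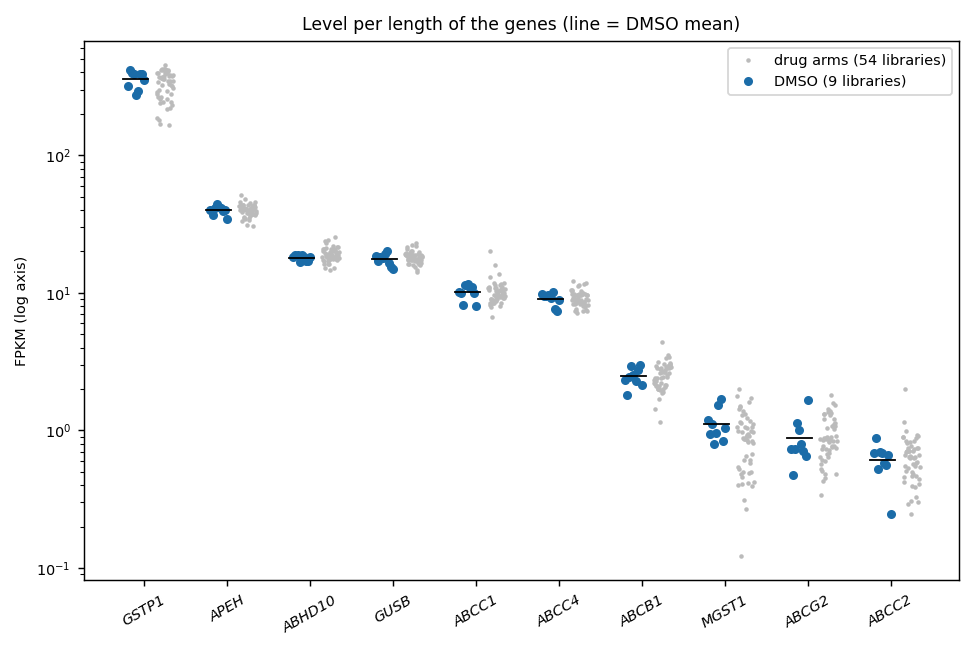
FPKM of the 10 genes on a log axis, with blue points for the 9 DMSO libraries, grey points for the 54 libraries of the drug arms and a line at the DMSO mean. GSTP1 lies near 358 FPKM, and MGST1, ABCG2 and ABCC2 lie around or below 1.12 FPKM.

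The counts also differed widely between the genes. GSTP1 had 2047 to 9482 counts in a library, whereas MGST1 had 3 to 57, ABCC2 16 to 119 and ABCG2 29 to 159. No gene was at 0 in any library. The spread within groups was largest for the genes with the fewest counts. The median coefficient of variation was 4.55% for GUSB and 5.74% for ABCC4 against 22.6% for ABCG2 and 45.9% for MGST1. Among the genes with more counts it did not follow the counts. GSTP1 had 17.6% at the highest counts of the set. APEH (6.01%) and ABCC1 (7.95%) were above GUSB, at median counts of 1495 and 1126 against 719.

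To see whether any arm moved these genes, each drug arm was compared with DMSO over the 3 times together in a quasi-likelihood fit of all 63 libraries (edgeR, Benjamini-Hochberg adjustment over the tested genes, called at 0.05, two-sided). Of the 60 gene by arm values, 1 was called: ABCG2 rose with photocaged ibufenac. No member was called with the ibuprofen bolus, where 0.0258% of all tested genes were called, or with the ibufenac bolus (0.0103%). None was called with photocaged ibuprofen (4.28% of all tested genes), the ibuprofen probe (8.43%) or the ibufenac probe (13.2%). With photocaged ibufenac 1 of 10 was called against 7.49% of all tested genes. At an unadjusted p under 0.05 the number was 8 of 60. DESeq2 called 1 member each with photocaged ibuprofen, photocaged ibufenac and the ibufenac probe, and 0 in the other 3 arms. Its share over all tested genes was not computed, and the percentages above are those of edgeR. The median of the 10 log2 fold changes lay between -0.05 and 0.02 in the 6 arms, and the median over all tested genes ran from -0.01 to 0.00.

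**Figure D2:**
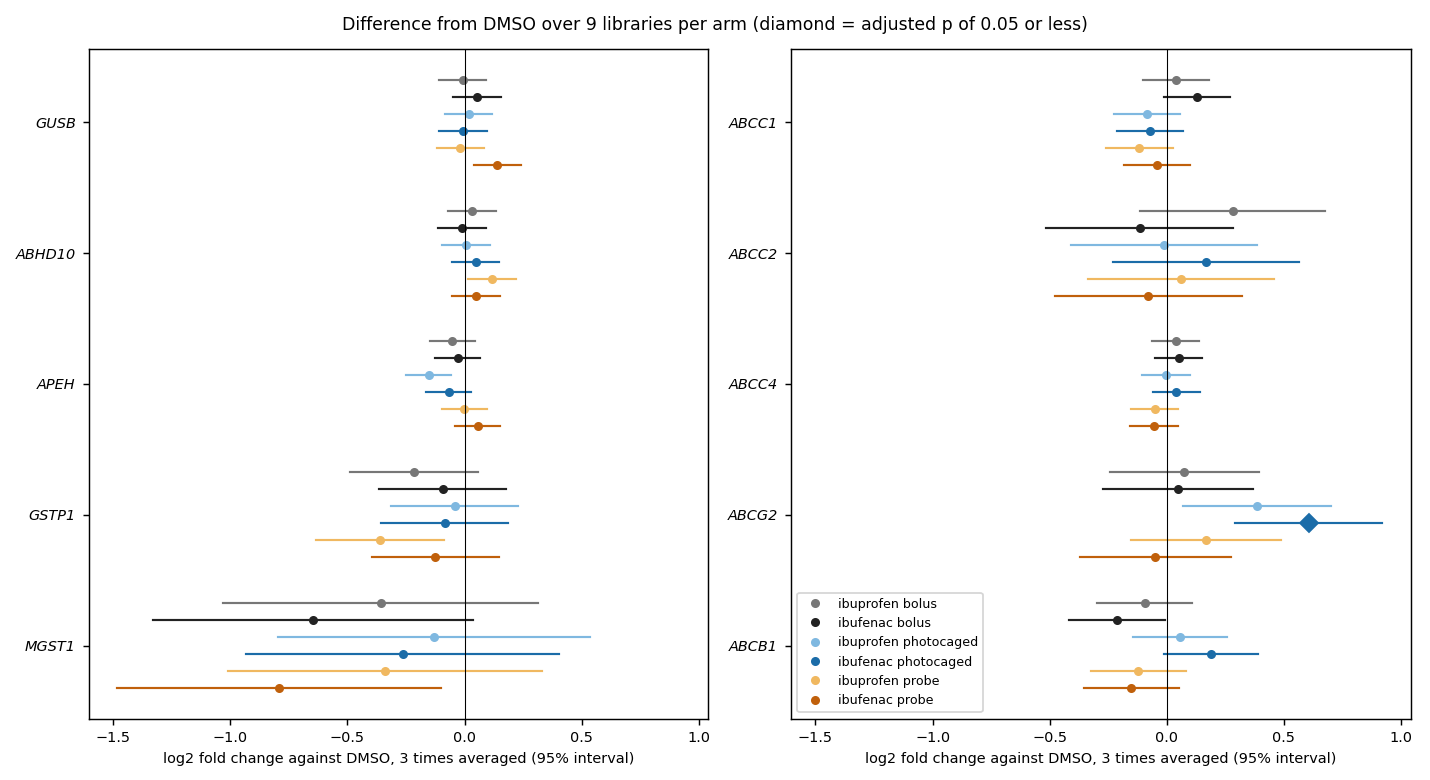
Log2 fold change of each gene in each drug arm against DMSO over the 3 times, with 95% intervals from the edgeR fit (9 libraries per arm). The diamond marks the called value, ABCG2 with photocaged ibufenac at 0.60, and the intervals of MGST1 and ABCC2 are the widest.

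Counting only whether the 3 libraries of an arm and time lay entirely to one side of the 3 DMSO libraries, 26 of 180 gene by comparison values were separate, 15 above and 11 below, or 14.4%, where the same held for 20% of values over all tested genes (9.81 to 29.9% in single comparisons). The share among these genes was thus below that among all tested genes, but the difference between the shares was not tested. The values are not independent, since the arms share the DMSO libraries of each time and each gene enters every comparison. GSTP1 and ABCG2 were separate from DMSO more often than any other member.

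Among the hydrolases, GUSB encodes lysosomal beta-glucuronidase, which removes glucuronic acid from glycosaminoglycans and drug conjugates. The gene (ENSG00000169919) lies on the minus strand of chromosome 7 (65960684 to 65982314, GRCh38). Its RefSeq promoter on GRCh38.p14 (chr7:65982214-65982463, minus strand, the 250 bases before the start site) is printed because GUSB was one of the genes that differed between the drugs, and capitals mark GGGCGG, the SP1 box, and GCGTG, the core bound by the dioxin receptor, on either strand.
GUSB: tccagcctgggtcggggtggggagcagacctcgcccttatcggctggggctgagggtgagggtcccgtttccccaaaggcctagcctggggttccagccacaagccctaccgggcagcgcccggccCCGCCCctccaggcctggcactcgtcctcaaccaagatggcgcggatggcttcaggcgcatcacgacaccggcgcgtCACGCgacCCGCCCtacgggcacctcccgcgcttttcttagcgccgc
The GC boxes on the reverse strand begin 124 and 39 bases before the start, and the dioxin core 47 bases before it. Over the 35116 RefSeq promoter windows of 300 bases, 45% hold GGGCGG and 36.5% hold GCGTG, so neither match sets this promoter apart.

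GUSB was among the steadiest genes, between 31.8 and 45.3 CPM in all 63 libraries. With DMSO it read 39.4, 35.7 and 38.5 CPM at 6 h, 37.3, 35.8 and 39.2 at 12 h, and 35.4, 35.1 and 33.4 at 18 h. With the ibufenac probe it read 42.5, 42.1 and 39.9 CPM at 6 h, 45.3, 35.7 and 43.0 at 12 h, and 37.0, 39.0 and 38.7 at 18 h. The ibufenac probe libraries were above the DMSO mean of their time in 8 of 9 cases, with no overlap at 6 and 18 h. The log2 fold change of 0.14 ± 0.05 (SE; 95% interval 0.04 to 0.24, n = 9 per arm) narrowly missed the threshold (edgeR adjusted p = 0.0568). Without ibufenac probe 12 h replicate 2, the lowest of the 9, it was 0.17 and passed (adjusted p = 0.0153), as it did at 0.15 without 6 h replicate 3 (0.0493). It passed under 3 other settings, with an adjusted p of 0.0371 with RLE factors, 0.0330 with DESeq2 and 0.0303 with GC and length trends removed. It did not pass with a replicate block or without the low-count filter. Nor did it pass in a fit of only the ibufenac probe and DMSO libraries, or without the 2 ibufenac bolus libraries described below.

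ABHD10 encodes a mitochondrial serine hydrolase known to cut acyl glucuronides, and it lies on chromosome 3 (111979010 to 111993363). No comparison with DMSO was called for it. Its largest averaged difference was 0.12 ± 0.05 with the ibuprofen probe (adjusted p = 0.140). At 6 h that arm read 53.9, 49.6 and 44.7 CPM against 44.1, 41.7 and 44.3 in DMSO, so the 3 probe libraries were all above the 3 of DMSO. The widest swing was between times of the ibufenac bolus, from 42.3, 40.1 and 35.5 CPM at 6 h to 49.8, 47.3 and 51.5 at 18 h, which was not tested as a contrast of its own. ABHD10 is AT-rich, with 37.6% GC in its longest transcript, and 92.7% of tested genes have a higher GC content.

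APEH, on chromosome 3 (49674002 to 49683963), encodes acylpeptide hydrolase, a cytosolic serine peptidase that releases acylated amino acids and has been studied as a hydrolase of acyl glucuronides. With photocaged ibuprofen it read 75.4, 70.2 and 80.7 CPM at 6 h, 65.7, 67.0 and 68.8 at 12 h, and 71.8, 73.3 and 68.2 at 18 h. DMSO read 83.7, 80.5 and 80.0, then 81.4, 76.0 and 80.0, then 80.9, 78.8 and 71.4 CPM. All 9 photocaged ibuprofen libraries were below the DMSO mean of their time, and the groups were fully separate at 12 h. The difference of -0.15 ± 0.05 (95% interval -0.25 to -0.06) missed the threshold (edgeR adjusted p = 0.0527), and it passed with DESeq2 (0.0428) and when only the 18 libraries of photocaged ibuprofen and DMSO were fitted (0.0396). It did not pass with RLE factors (0.0648), without the low-count filter (0.0992) or with GC and length trends removed (-0.11, adjusted p = 0.272). At 12 h alone the difference was -0.24 ± 0.08 (adjusted p = 0.197), and with these trends removed it was -0.37 and passed (0.0446). With photocaged ibufenac the averaged value was -0.07 ± 0.05 (adjusted p = 0.478).

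The multidrug resistance proteins of the ABCC family export glutathione, glucuronide and sulfate conjugates. ABCC1 (MRP1) sits on chromosome 16 (15949577 to 16143074) and ABCC4 (MRP4) on the minus strand of chromosome 13 (95019829 to 95301475). Neither was called in a comparison of 1 arm with DMSO, averaged or at a single time; ABCC1 was called in the joint test of all 18 differences (adjusted p = 0.0319). ABCC1 read 61.8, 56.7 and 49.7 CPM in DMSO at 6 h and 57.8, 67.0 and 98.3 with the ibufenac bolus, a difference of 0.41 ± 0.12 (adjusted p = 0.192). The value of 98.3 CPM, the highest of all 63, came from replicate 3, 1 of 2 ibufenac bolus libraries that an earlier analysis of these counts had set apart from their groups. Its root mean square log2 distance from the rest of its group was 0.823, below the 0.896 of replicate 2. A chi-square per gene, the squared count difference of 2 libraries over that of counting noise, did set it apart. It was 48.4 and 58.2 against replicates 1 and 2, and 7.78 between those 2. The other library set apart, 18 h replicate 3, was at a root mean square distance of 0.742. That was above the 0.580 and 0.614 of its group but below the 0.749 to 0.801 of DMSO at 18 h. Its chi-square per gene was 46.6 and 54.4 against replicates 1 and 2, and 12.0 between those 2. Averaged over the times, the ibufenac bolus difference was 0.13 ± 0.07 with both of these libraries and 0.08 (adjusted p = 0.886) without them. For ABCC4 the averaged differences ran from -0.06 to 0.05, with intervals between -0.16 and 0.15.

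ABCC2 (MRP2), on chromosome 10 (99782640 to 99852594), is the canalicular pump that moves conjugates from hepatocytes into bile. At 1.03 to 5.15 CPM it was scarce here, and none of its differences was called. With the ibuprofen bolus at 6 h it read 4.64, 4.42 and 5.15 CPM, all above the 3.67, 2.76 and 2.88 of DMSO. Averaged over the times the difference was 0.28 ± 0.20 (95% interval -0.11 to 0.68, adjusted p = 0.627).

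ABCG2, the breast cancer resistance protein, is an apical half-transporter that exports drugs, urate and sulfate conjugates. It lies on the minus strand of chromosome 4 (88090264 to 88231322). RefSeq lists 5 start sites for it, and the 250 bases before the third (chr4:88158910-88159159, minus strand, GRCh38.p14) are printed because ABCG2 carried the called difference from DMSO. Capitals mark the dioxin core and the SP1 box named for GUSB, on either strand, with ACGTG for the core of the hypoxia element. The matches to ACGTG on the opposite strands overlap as CACGTG, which reads the same on both strands.
ABCG2: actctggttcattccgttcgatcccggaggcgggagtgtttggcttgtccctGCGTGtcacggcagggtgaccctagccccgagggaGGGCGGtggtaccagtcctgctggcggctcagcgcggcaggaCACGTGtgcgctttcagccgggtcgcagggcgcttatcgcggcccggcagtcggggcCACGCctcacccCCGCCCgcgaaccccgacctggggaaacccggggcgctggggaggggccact
ACGTG occurs in 21.4% of the 35116 windows. The window of the first start site holds 1 match to TGATGNAA, the core of the CHOP and ATF4 composite element, at 1 base after the start, and 3.62% of windows hold that motif. The second window holds TGACTGGGC, a match to the antioxidant response core TGACNNNGC (13.3% of windows), at 2 bases after the start. The count table does not separate the start sites, so these matches are described and not tied to the change.

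In DMSO, ABCG2 read 3.31, 2.19 and 1.91 CPM at 6 h, 3.34, 4.26 and 2.55 at 12 h, and 2.89, 3.10 and 3.15 at 18 h. With photocaged ibufenac it read 4.32, 4.12 and 4.50 CPM at 6 h, 3.17, 6.07 and 4.67 at 12 h, and 4.99, 4.83 and 3.46 at 18 h. The photocaged ibufenac libraries were all above DMSO at 6 and 18 h and overlapped it at 12 h, and 8 of 9 exceeded the DMSO mean of their time. ABCG2 rose by 0.60 ± 0.16 on the log2 scale (95% interval 0.29 to 0.92, edgeR adjusted p = 0.00903, n = 9 per arm). The call held in each leave-one-out fit, with a largest adjusted p of 0.0362 without photocaged ibufenac 12 h replicate 2, and it held with GC and length trends removed (0.55, adjusted p = 0.0145). No single time passed alone; the nearest was 6 h at 0.82 ± 0.27 (adjusted p = 0.0939), where 3.03% of all tested genes were called.

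With photocaged ibuprofen ABCG2 read 2.11, 2.42 and 3.53 CPM at 6 h, 5.38, 5.89 and 2.95 at 12 h, and 4.99, 4.27 and 3.86 at 18 h. These libraries overlapped DMSO at 6 and 12 h and lay above it at 18 h. The difference was 0.38 ± 0.16 (95% interval 0.07 to 0.70) and was not called (adjusted p = 0.179). In both bolus arms and in both probe arms the averaged differences ran from -0.05 to 0.17, each with an interval that included 0. At 18 h, though, the separation from DMSO (2.89 to 3.15 CPM) was not particular to the photocaged arms. The ibuprofen bolus (3.72 to 3.79 CPM), the ibufenac bolus (3.36 to 4.22) and the ibuprofen probe (3.34 to 5.06) also lay above DMSO then. Only the ibufenac probe overlapped DMSO at 18 h (2.19 to 3.71 CPM).

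ABCB1 encodes P-glycoprotein, which exports many uncharged and cationic drugs, and lies on the minus strand of chromosome 7 (87503633 to 87713323). No difference from DMSO in 1 arm was called for it, averaged or at a single time, although the joint test of all 18 differences was (adjusted p = 0.0387). The averaged differences ran from -0.21 ± 0.10 with the ibufenac bolus (adjusted p = 0.561) to 0.19 ± 0.10 with photocaged ibufenac (adjusted p = 0.292). The 21 group means ran from 7.26 CPM with the ibufenac probe at 6 h to 13.1 CPM with photocaged ibufenac at 18 h.

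GSTP1 encodes the pi class glutathione transferase, an abundant cytosolic enzyme that conjugates electrophiles and whose gene carries a well-known antioxidant response element. It lies on chromosome 11 (67583595 to 67586656). The RefSeq promoter (chr11:67583562-67583811, plus strand, GRCh38.p14, the 250 bases before the start site) is printed because GSTP1 made the largest called moves of the set, and capitals mark TGACNNNGC, the antioxidant response core, and GGGCGG.
GSTP1: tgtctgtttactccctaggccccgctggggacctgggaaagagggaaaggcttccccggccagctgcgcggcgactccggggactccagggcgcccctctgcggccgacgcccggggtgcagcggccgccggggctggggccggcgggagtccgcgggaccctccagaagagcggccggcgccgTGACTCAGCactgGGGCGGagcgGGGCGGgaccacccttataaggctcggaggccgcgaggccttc
The match TGACTCAGC begins 66 bases before the start and is followed by GC boxes at 53 and 43 bases before it. The 8 genes with a RefSeq entry have 15 windows, and 4 of these hold TGACNNNGC on either strand (in ABCC4, ABCG2, GSTP1 and MGST1), as do 13.3% of the 35116 windows; ABHD10 and ABCC1 had no window.

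With DMSO GSTP1 read 243, 325 and 305 CPM at 6 h, 285, 195 and 210 at 12 h, and 305, 309 and 281 at 18 h. With the ibuprofen probe it read 129, 119 and 186 CPM at 6 h, 320, 301 and 291 at 12 h, and 179, 211 and 255 at 18 h. The probe libraries lay below all DMSO libraries at 6 and 18 h and above all of them at 12 h. GSTP1 fell by 1.01 on the log2 scale at 6 h (SE 0.24, 95% interval -1.48 to -0.54, edgeR adjusted p = 0.00492, n = 3 per group). It was the only member called against DMSO at a single time, in a comparison where 11.4% of all tested genes were called. That is 1 of 180 values, against 2.87% over all tested genes, and 12 of the 180 had an unadjusted p under 0.05. Without ibuprofen probe 6 h replicate 2 the fall was 0.89 and no longer passed (adjusted p = 0.0622). Over the 3 times the difference was -0.36 ± 0.14 and was not called (adjusted p = 0.0876); without ibuprofen probe 6 h replicate 3 it was -0.43 and passed (0.0384).

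In the other arms GSTP1 lay above or below DMSO at different times, and none of those differences was called. The ibuprofen bolus read 137, 206 and 215 CPM at 6 h, all below DMSO (-0.64 ± 0.24, adjusted p = 0.305). Photocaged ibufenac read 325, 307 and 303 CPM at 12 h, all above DMSO, and 160, 230 and 280 at 18 h, all below it. The ibufenac bolus read 243, 276 and 111 CPM at 18 h, where 111 CPM, the lowest of the 63 libraries, came from replicate 3, the second of the libraries set apart. The test of whether the differences from DMSO depended on time called GSTP1 (F = 4.50 on 12 numerator degrees of freedom, edgeR adjusted p = 0.00131), 1 member of 10 where 22.8% of all tested genes were called.

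GSTP1 also followed a property of the libraries. Its longest transcript has 62.5% GC, and 7.07% of tested genes have more. For each library a GC slope was taken, the change in log2 level per 10 points of GC content over 9678 other genes, and the slopes ran from -0.279 to 0.200. The ibuprofen probe libraries at 6 h had slopes from -0.263 to -0.123, the DMSO libraries at 6 h from -0.058 to 0.096, and the ibufenac probe libraries at 6 h from 0.068 to 0.182. Across the 63 libraries GSTP1 level and slope had a Pearson r of 0.92 and a Spearman rho of 0.91 (permutation p = 1e-05 for each, the smallest that 100000 permutations can give, and 0.0001 after adjustment over the 10 members). Without the 2 libraries farthest from the median slope r was 0.90, and within groups it was 0.89. ABHD10 (r = -0.39, adjusted permutation p = 0.00477) and ABCC4 (r = -0.45, adjusted permutation p = 0.001) ran the other way. With GC and length trends removed from each library, the 6 h difference of the ibuprofen probe was -0.55 ± 0.13 and remained called (adjusted p = 0.00639), and the time dependence of GSTP1 remained called (adjusted p = 0.0120). The part of the GC slope in the remaining difference was not tested.

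**Figure D3:**
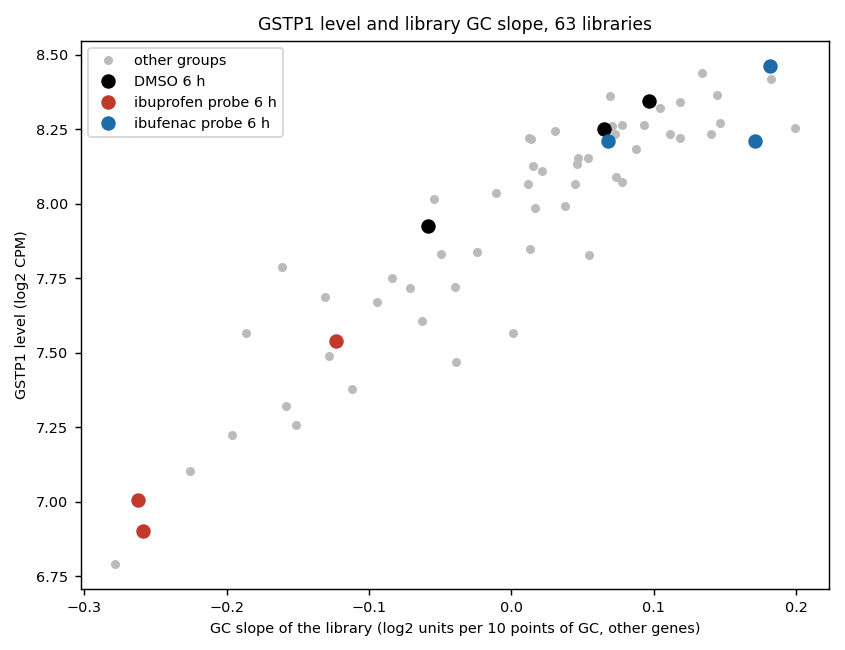
GSTP1 level (log2 CPM) of each of the 63 libraries against the GC slope of that library, with the 6 h groups of DMSO, the ibuprofen probe and the ibufenac probe in colour and the other groups in grey. The 3 ibuprofen probe libraries lie at slopes of -0.263 to -0.123 and low GSTP1, and the 3 ibufenac probe libraries at 0.068 to 0.182 and high GSTP1.

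MGST1, on chromosome 12 (16347142 to 16609259), encodes a microsomal glutathione transferase of the endoplasmic reticulum and the outer mitochondrial membrane. It was the least counted gene, at 0.170 to 1.92 CPM. With the ibufenac probe it ranged from 0.200 to 0.973 CPM (median 0.576, n = 9) against 0.564 to 1.85 in DMSO (median 0.857). The difference of -0.79 ± 0.34 (95% interval -1.49 to -0.10) was not called (adjusted p = 0.126), although 8 of 9 libraries were below the DMSO mean of their time. All 6 averaged differences of MGST1 were negative, and none was called.

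**Figure D4:**
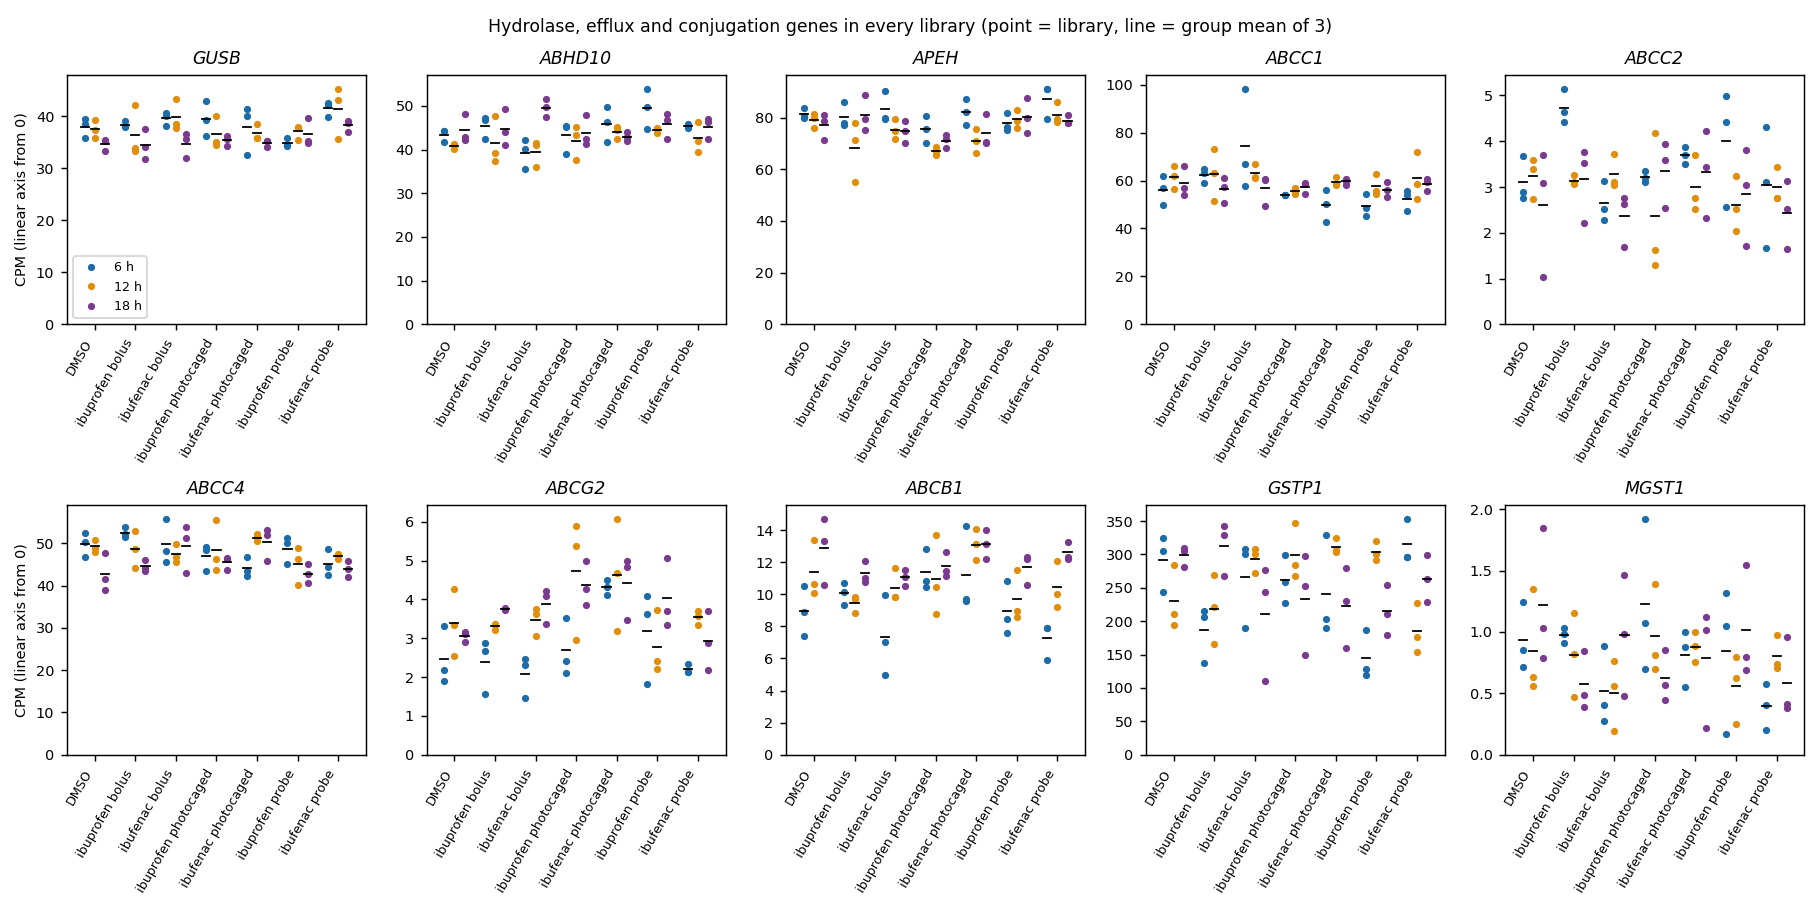
CPM of each gene in every library on linear axes from 0, by arm and coloured by time, with a line at each group mean of 3. GSTP1 moves between times within arms, and GUSB, ABHD10, APEH and ABCC4 stay close to level. The mean of ABCG2 over an arm is highest in the photocaged arms. At 6 h, however, photocaged ibuprofen (mean 2.69 CPM) is below the ibuprofen probe (3.17).

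The 2 drugs, which differ by the methyl group, were compared directly within each form, over the 3 times and at each time, 12 comparisons with p-values adjusted within each. Averaged over the times none of 30 member values was called: 0% of all tested genes were called in the bolus pair, 0.0362% in the photocaged pair and 2.82% in the probe pair. At an unadjusted p under 0.05 the number was 2 of 30. DESeq2 called 1 member, in the probe pair, where its share over all tested genes was not computed. For ABCG2 the photocaged drugs differed by 0.22 (95% interval -0.09 to 0.53), so the call with ibufenac and its absence with ibuprofen are not shown to differ. For GUSB ibufenac was above ibuprofen as the probe by 0.16 ± 0.05 (95% interval 0.06 to 0.26, adjusted p = 0.0711). For ABCC1 the 3 pair differences were 0.09 (-0.05 to 0.23) as bolus, 0.01 (-0.13 to 0.15) photocaged and 0.08 (-0.07 to 0.22) as probe. For ABHD10 they were -0.04 (-0.14 to 0.06), 0.04 (-0.06 to 0.14) and -0.07 (-0.17 to 0.03). ABCC2 and MGST1 had the widest intervals, reaching -0.79 to 0.00 for ABCC2 as bolus and -1.15 to 0.25 for MGST1 as probe.

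At single times 2 of 90 drug pair values were called, both higher with ibufenac and both for the probe at 6 h, where 23.6% of all tested genes were called and 12.9% were called higher. Over the 9 pairs together 3.1% of all values were called. GSTP1 read 296, 296 and 353 CPM with the ibufenac probe and 129, 119 and 186 with the ibuprofen probe, with no overlap, a difference of 1.12 ± 0.24 (95% interval 0.65 to 1.60, edgeR adjusted p = 0.000413, n = 3 per group). With GC and length trends removed it was 0.54 and remained called (adjusted p = 0.00275). At 12 h the order was the opposite, with 177, 153 and 227 CPM for ibufenac and 320, 301 and 291 for ibuprofen, and the difference of -0.71 ± 0.24 was not called (adjusted p = 0.0912). GUSB read 42.5, 42.1 and 39.9 CPM against 34.5, 34.2 and 35.9 at 6 h, also without overlap (0.25 ± 0.09, 95% interval 0.08 to 0.43, adjusted p = 0.0298). That call was lost without replicate 1 (0.24, adjusted p = 0.0821) or replicate 2 (0.24, adjusted p = 0.0940) of the ibuprofen probe at 6 h, and without replicate 1 (0.23, adjusted p = 0.0775) or replicate 2 (0.24, adjusted p = 0.0791) of the ibufenac probe. It was also lost with GC and length trends removed (0.21, adjusted p = 0.0804) and without the low-count filter (adjusted p = 0.106).

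The probe form was set against the photocaged form within each drug. With ibuprofen none of the 10 genes was called, where 0.0982% of all tested genes were. With ibufenac 1 of 10 was called, where 2.68% were: ABCG2 was lower with the probe by 0.65 on the log2 scale (-0.65 ± 0.16, 95% interval -0.97 to -0.34, edgeR adjusted p = 0.0127). The probe libraries read 2.14, 2.33 and 2.13 CPM at 6 h, 3.58, 3.70 and 3.35 at 12 h, and 2.88, 2.19 and 3.71 at 18 h, and all 9 were below the photocaged mean of their time. These libraries share the photocaged ibufenac arm with the comparison to DMSO, so the 2 ABCG2 calls are not independent. Without the low-count filter, in a fit that takes each gene's spread from the trend over genes, the adjusted p was 0.0515, just past the threshold. The difference of ABCB1 was -0.34 ± 0.10 and was not called (adjusted p = 0.0535). At an unadjusted p under 0.05 the number was 7 of the 20 values of both drugs.

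In DMSO the genes were tested over time alone. None of 10 was called for any change over the 3 times, where 16.4% of all tested genes were. In the direct comparison of 18 with 6 h ABCB1 rose (0.53 ± 0.18, 95% interval 0.18 to 0.88, edgeR adjusted p = 0.0279, n = 3 per group), 1 of 10 members where 17.5% of all tested genes were called. It read 10.5, 8.89 and 7.40 CPM at 6 h and 13.3, 14.7 and 10.6 at 18 h. Without DMSO 6 h replicate 3 the difference was 0.41 and did not pass (adjusted p = 0.169). It also missed the threshold without 6 h replicate 2 (adjusted p = 0.0699), 18 h replicate 1 (0.0740) or 18 h replicate 2 (0.138).

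Other genes of the same chemistry were read from 5 lists of 80 genes. As background, the genes called higher were 1.98% of all tested genes with photocaged ibuprofen, 4.13% with photocaged ibufenac, 3.81% with the ibuprofen probe and 5.87% with the ibufenac probe. Those called lower were 2.3%, 3.36%, 4.61% and 7.31% in the same order. Of 17 conjugation genes 7 were tested, and none of the listed UGT1A genes was among them. SLC35D1, which carries UDP-glucuronic acid into the endoplasmic reticulum, rose with photocaged ibuprofen (0.20 ± 0.05, adjusted p = 0.00893), photocaged ibufenac (0.20 ± 0.05, adjusted p = 0.00455) and the ibuprofen probe (0.15 ± 0.05, adjusted p = 0.0470). UGDH, the enzyme that makes UDP-glucuronic acid, rose with photocaged ibufenac (0.28 ± 0.07, adjusted p = 0.0109). UGT8, which makes galactosylceramide, fell with the ibufenac probe (-0.31 ± 0.09, adjusted p = 0.0132). Of 14 tested esterases of 18 listed, 1 was called, ABHD6, a monoacylglycerol lipase, which fell with the ibufenac probe (-0.46 ± 0.11, adjusted p = 0.00281); 1 of 14 is near the 7.31% of all tested genes that were lower there.

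Of 18 further carriers 7 were tested, and 2 fell in each photocaged arm and 3 in each probe arm, with none higher. The members that moved are not all drug pumps: ABCC5 exports cyclic nucleotides and conjugates, SLC16A1 carries lactate and other monocarboxylates, and SLCO4A1 takes up organic anions such as thyroid hormone. SLC16A1 fell with photocaged ibuprofen (-0.14 ± 0.03) and photocaged ibufenac (-0.11 ± 0.03), and with the ibuprofen probe (-0.19 ± 0.03) and the ibufenac probe (-0.29 ± 0.03, adjusted p = 2.35e-09). ABCC5 fell in the same 4 arms by 0.21, 0.17, 0.17 and 0.28 on the log2 scale. SLCO4A1 fell with the ibuprofen probe (-0.61 ± 0.13, adjusted p = 0.00185) and the ibufenac probe (-0.56 ± 0.13, adjusted p = 0.00219). The median over the 7 tested carriers ran from -0.20 to -0.10 over the 6 arms, against -0.01 to 0.00 over all tested genes.

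Of 12 tested glutathione transferases of 17 listed, GSTCD rose with photocaged ibufenac (0.24 ± 0.05, adjusted p = 0.00198) and the ibufenac probe (0.17 ± 0.05, adjusted p = 0.0261), and GSTO2, an omega class enzyme that reduces dehydroascorbate, rose with the ibufenac probe (0.66 ± 0.21, adjusted p = 0.0302). Of 6 tested regulators of 10 listed, PPARA, the receptor that drives fatty acid oxidation genes, rose with the ibuprofen probe (0.29 ± 0.07, adjusted p = 0.00636). No gene of the 5 lists was called in either bolus arm.

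For the members most affected over all 18 differences from DMSO, the genes with the most similar pattern over the 21 group means were named from 14505 candidates with a mean of at least 1 CPM. That test called 4 of 10 members, GSTP1 (edgeR adjusted p = 0.00240), ABCG2 (0.0242), ABCC1 (0.0319) and ABCB1 (0.0387), where 33.6% of all tested genes were called. The pattern of GSTP1 was closest to those of ELOB (Pearson r = 0.99), FAU (0.98) and SSNA1 (0.98). ABCG2 was closest to PLK2 (0.85), PRRG4 (0.84) and FBXW7 (0.83), and ABCC1 to KIAA1671 (0.84), CORO1C (0.80) and ASH1L-AS1 (0.79). Among the members themselves ABCG2 and ABCB1 varied most alike (r = 0.70) and ABHD10 and ABCC1 most oppositely (r = -0.70). These are descriptions over 21 groups that share libraries, depth and GC slope with each other.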

How the data were processed

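RNA from 63 HEK293T samples was depleted of ribosomal RNA and sequenced from a stranded library kit, per the labels' protocols. The authors deposited expected counts, estimated without normalization for 58336 genes, and a matching table of FPKM. How reads were aligned and counted, with which strand setting and on which build, is not given in the sources used here, so genes with antisense or near-identical partners may share reads. Of the expected counts of 1 or more, 22.6% were not whole, and they were rounded. All entries were genes, and 0 columns were without a sample. FPKM were used only to compare levels between genes; CPM were computed from the counts.

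The 21 group means were fitted by quasi-likelihood in edgeR 4.0.16 (R 4.3.3), with TMM factors (0.908 to 1.11) and 19352 genes kept by filterByExpr with a minimum count of 10 (42 residual and 8.18 prior degrees of freedom). Two-sided p-values received the Benjamini-Hochberg adjustment, 1 comparison at a time, with calls at 0.05; intervals are 95%. Levels for the pattern search were log2 CPM. Of the 63 pairs of libraries within groups, the most alike differed with a chi-square of 5.11 per gene, so none was a duplicate. The fit was also run on simulated counts with changes planted in photocaged ibufenac. These counts had the same spread setting for every gene and no GC slope. The run therefore does not show how the fit handles either in these data. Correlations with the GC slope used SciPy 1.17.1.

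The 10 members and the lists were chosen with earlier results of these data known. Named from each list were up to 3 genes with the smallest p among those called against DMSO over the 3 times, and for up to 3 members the 3 genes with the highest r. Gene coordinates are those of GENCODE on GRCh38, and promoters are from RefSeq. The sources place some starts differently, so the printed windows of GSTP1 and GUSB lie partly inside the gene bounds given. Motif distances are from the RefSeq start site. The alternatives were DESeq2 1.42.0, a replicate block, RLE factors, omitting the low-count filter, fitting only 18 libraries, and leaving out each library of the compared arms. The removal of GC and length trends and the omission of 2 ibufenac bolus libraries were chosen after seeing the data.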

Additional observations from a re-analysis of the deposited data

Results flagged for a closer look

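The difference of GSTP1 from DMSO depended on the time of sampling (edgeR treatment by time interaction, adjusted p = 0.00131), with the ibuprofen probe below DMSO at 6 and 18 h and above it at 12 h. Photocaged ibuprofen had the same order of signs (log2 fold changes of -0.15, 0.38 and -0.36 at 6, 12 and 18 h). So did photocaged ibufenac (-0.27, 0.44 and -0.42) and the ibufenac bolus (-0.13, 0.35 and -0.51), but not the ibuprofen bolus or the ibufenac probe. No single-time difference of these other arms was called. The DMSO means that all arms share were 291, 230 and 299 CPM. The GC slope of the libraries moved with GSTP1 (Pearson r = 0.92 over 63 libraries), and with GC and length trends removed the adjusted p was 0.0120; the share of the slope in the remaining time dependence was not tested.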

How the results depend on the processing

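No difference that was called changed direction under an alternative. Differences that were not called did: with GC and length trends removed 59 of 410 member differences had the other sign, none of them called with or without the trends, among them APEH with the ibuprofen probe at 6 h (-0.07 to 0.27) and ABHD10 with the ibufenac bolus at 18 h (0.16 to -0.01). The order of the genes by FPKM kept all 10 positions when any library was left out. Counts of called members are given below as the reported number followed by the alternative's. Where they changed, the cause was not tested. Shares over all tested genes were computed under only some alternatives, so a changed count is not read as a change in the members. With RLE factors the ibufenac probe against DMSO over the 3 times went from 0 to 1. With DESeq2 photocaged ibuprofen, the ibufenac probe and the drug pair as probe over the 3 times each went from 0 to 1, the ibufenac probe against photocaged from 1 to 2, photocaged ibufenac at single times from 0 to 1, and DMSO over time from 0 to 1. In a fit of 18 libraries photocaged ibuprofen and the ibuprofen probe went from 0 to 1. Without the low-count filter 36130 genes were fitted, and the prior degrees of freedom were infinite against 8.18, so that each gene's own spread was replaced by the trend. The ibuprofen bolus, the ibuprofen probe, the drug pair as probe and the ibuprofen probe against photocaged over the 3 times then went from 0 to 1, and the ibufenac probe against photocaged from 1 to 0. At single times the ibuprofen bolus and the ibufenac probe went from 0 to 1, photocaged ibuprofen from 0 to 2, the ibufenac bolus, photocaged ibufenac and the drug pair as bolus from 0 to 3, and the ibuprofen probe from 1 to 3. The treatment by time interaction went from 1 to 2 and DMSO over time from 0 to 1.

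With GC and length trends removed the ibufenac probe and the drug pair as probe over the 3 times went from 0 to 1, the ibufenac probe against photocaged from 1 to 2, photocaged ibuprofen at single times from 0 to 1, the drug pair as probe at single times from 2 to 1, the interaction from 1 to 2 (APEH, adjusted p = 0.00864) and DMSO over time from 0 to 2. DMSO at 18 against 6 h went from 1 to 2 (ABCC4, adjusted p = 0.0123) and the joint test of all 18 differences from 4 to 5 (APEH, adjusted p = 0.00132). Without the 2 ibufenac bolus libraries set apart, photocaged ibuprofen and the ibuprofen probe over the 3 times went from 0 to 1, the ibufenac probe against photocaged from 1 to 2, the drug pair as bolus at single times from 0 to 1 and DMSO over time from 0 to 1.

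Same-numbered libraries did not deviate together in the median (median correlations of 0.01, -0.00 and 0.00 at 6, 12 and 18 h, from -0.13 to 0.21). This gave no sign that the numbers pair the samples. It cannot exclude a pairing, since the labels do not say how the replicates were made. With a replicate block photocaged ibuprofen went from 0 to 1 and the ibufenac probe against photocaged from 1 to 2; the replicate block moved no other count of members.

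Leaving out each library gave 0 to 1 for photocaged ibuprofen (1 without its 6 h replicate 3 or DMSO 18 h replicate 3), the ibuprofen probe (1 without its 6 h replicate 3), the ibufenac probe (1 without its 6 h replicate 3 or 12 h replicate 2) and the drug pair as probe (1 without ibufenac probe 12 h replicate 2) over the 3 times. It gave 1 to 3 for the ibufenac probe against photocaged (3 without ibufenac probe 12 h replicate 2, and 2 without its 6 h replicate 1 or photocaged 6 h replicate 2 or 3). At single times it gave 0 to 1 for the ibufenac bolus (1 without its 6 h replicate 1 or 18 h replicate 2) and for the ibuprofen probe (0 without its 6 h replicate 2), and 1 to 2 for the drug pair as probe (1 without ibuprofen probe 6 h replicate 2 or ibufenac probe 6 h replicate 1 or 2). It gave 1 to 2 for the interaction (2 without ibufenac bolus 6 h replicate 1) and 0 to 2 for DMSO over time (2 without 18 h replicate 3, and 1 without 6 h replicate 1). The counts of ABCC2, ABCG2 and MGST1, down to 3 in a library, limit the precision for these genes.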
